A study of Mus musculus with 6 samples.

Results

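Cytosolic ribosomal proteins are the proteins of the ribosome that translates nuclear messenger RNAs. They were taken here as the genes whose symbols follow the pattern Rpl or Rps, a number and at most 2 further letters or digits, together with Rplp0, Rplp1, Rplp2 and Rpsa. Rpl3, its muscle paralogue Rpl3l and symbols of named pseudogenes were kept out by the same rule. It selected 81 of 21572 gene symbols, 48 of the large subunit and 33 of the small subunit. The rule went by name alone and not by any measured value, but it was set with earlier results of these data known.

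A ribosome joins a small subunit, which reads the messenger RNA, to a large subunit, which forms the peptide bond, and each protein is needed in about equal number. Messenger RNAs of these proteins commonly begin with a run of pyrimidines, the terminal oligopyrimidine motif, through which the mTOR pathway and the binding protein Larp1 set their translation and stability. In muscle, the number of ribosomes sets the capacity for protein synthesis, and it changes when the load or the nerve supply of the muscle changes.

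The libraries were polyadenylated RNA of soleus, a slow-rich hindlimb muscle, from adult C57BL/6 mice, in 3 groups of 2. They were denervated soleus labelled Dach2-/-/Hdac9-/- (DKO-labelled), denervated soleus of wild-type (WT) mice, both taken 3 days after denervation, and innervated WT soleus. The series asked which genes Dach2, a nuclear co-factor of transcription, and Hdac9, a histone deacetylase, regulate in denervated muscle. Innervated DKO-labelled soleus was not analysed here, and the labels do not give the deleted exons, or say whether the libraries of a group came from separate animals.

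The libraries held 25529434 to 46305449 assigned fragments. Of the targeted genes, Dach2 had 0.961 and 0.681 FPKM (fragments scaled by transcript length and by the authors' factor for the library) in DKO-labelled, 0.519 and 0.536 in denervated WT and 3.85 and 4.29 in innervated WT libraries, so it was not lower in the DKO-labelled than in the denervated WT libraries. Hdac9 had 0.534 and 0.181 FPKM in DKO-labelled, 1.83 and 0.285 in denervated WT and 4.10 and 3.14 in innervated WT libraries. Summed FPKM of 7 myofibre markers, among which Acta1 was listed at 0 in every library, ran from 6589 to 6805 in DKO-labelled, from 6517 to 7546 in denervated WT and from 19211 to 22794 in innervated WT libraries, and 5 of the 6 tested were lower in denervated than in innervated WT soleus. Among markers of other cells, 1 of 8 for macrophages, 1 of 3 for neutrophils and 1 of 4 for satellite cells were higher in that comparison, 4 of 5 for endothelium and 2 of 7 for fibroblasts or fibro-adipogenic cells were lower, and of 5 for Schwann cells 1 was higher and 2 were lower. Of 2 tested proliferation markers none was called. Over all genes 14.4% were called higher and 14.3% lower, so the macrophage count is near that share. The neutrophil list summed to 92.9 and 121 FPKM in DKO-labelled, 30.1 and 71.7 in denervated WT and 4.85 and 12.9 in innervated WT libraries. Its 3 genes did not move together. Their log2 changes ran from -0.59 to 3.48 between the WT groups, with a median of 1.16. In DKO-labelled against innervated WT soleus they ran from -0.46 to 4.74, with a median of 0.07. Summed FPKM of the fibroblast list ran from 409 to 492 in DKO-labelled, from 378 to 552 in denervated WT and from 719 to 922 in innervated WT libraries, and the part of cell makeup in the results below was not tested. In bulk muscle, fewer cells of a type and less RNA per cell cannot be told apart.

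The start regions of 7 members are printed because their values carry the results that follow: Rpl12, Rpl22l1 and Rps6 among those that were higher in denervated muscle, Rps18, Rps2 and Rplp0 as the members of smallest p between the denervated groups, and Rpl35, which went the other way. Each line gives 50 bases before and 20 from the RefSeq transcript start on build GRCm38.p6, read along the gene's own strand, with the longest pyrimidine run close to the start in capitals.
Rpl12: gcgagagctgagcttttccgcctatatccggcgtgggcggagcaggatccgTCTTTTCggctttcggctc
Rpl22l1: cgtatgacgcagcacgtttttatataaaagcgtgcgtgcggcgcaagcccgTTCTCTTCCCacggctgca
Rps6: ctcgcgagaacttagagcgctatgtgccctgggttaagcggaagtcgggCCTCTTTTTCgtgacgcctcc
Rps18: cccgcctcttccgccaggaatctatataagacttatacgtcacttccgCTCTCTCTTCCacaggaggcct
Rps2: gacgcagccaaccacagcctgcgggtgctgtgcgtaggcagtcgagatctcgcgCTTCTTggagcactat
Rplp0: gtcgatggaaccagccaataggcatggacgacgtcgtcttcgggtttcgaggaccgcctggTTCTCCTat
Rpl35: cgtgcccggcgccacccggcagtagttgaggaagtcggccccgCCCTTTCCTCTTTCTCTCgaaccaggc

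On GRCm38.p6 these stretches lie at chr2:32961662-32961731 on the plus strand for Rpl12, chr3:28805458-28805527 plus for Rpl22l1, chr4:86857348-86857417 minus for Rps6 and chr17:33955646-33955715 minus for Rps18. Those of Rps2, Rplp0 and Rpl35 lie at chr17:24720013-24720082 plus, chr5:115559417-115559486 plus and chr2:39005112-39005181 minus. The pyrimidine run was 10 bases long in Rps6 and in Rpl22l1, 11 in Rps18, 18 in Rpl35 and 7 in both Rpl12 and Rplp0, and it was 6 bases long in Rps2. It began 11 bases after the annotated start in Rplp0 and 7 bases before it in Rpl35, while in the other 5 it began within 4 bases of the start. RefSeq held start windows for 61 of the 81 members, 71 windows in all, each with 250 bases before and 50 after the start. A run of at least 8 pyrimidines within 25 bases of the start was present in 54.9% of them, against 24.1% of the 32851 windows of all genes. The median longest run was 9 bases for members and 5 for all genes.

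Motifs were searched on both strands of the same windows, and matches of different motifs could overlap. CCGGAAG, the core bound by ETS factors such as Gabpa, was present in 35.2% of member windows and 8.9% of all windows, and GCCATNTT, the core bound by Yy1, in 21.1% and 6.1%. The E-box CACGTG, which Myc and Max bind, was present in 8.5% of member and 7.2% of all windows, and TATAAA in 9.9% and 13.6%. CCGGAAG lay in the windows of Rps6, Rps18, Rps2 and Rpl35, and GCCATNTT in that of Rpl22l1. Base composition was not matched between members and all genes, and a match of letters is not a measured site.

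At a mean of at least 0.5 FPKM, 79 members were tested, 46 large and all 33 small. Rpl10l and Rpl39l, paralogues that in mouse are chiefly made in testis, were not tested: Rpl10l was listed at 0 fragments in every library, and Rpl39l had 14 and 1 fragments in DKO-labelled, 2 and 1 in denervated WT and 9 and 3 in innervated WT libraries. Their usual counterparts were abundant: Rpl10 had 324 and 337 FPKM in DKO-labelled, 313 and 382 in denervated WT and 146 and 147 in innervated WT libraries. Rows for Rpl30 and Rpl34 are joined in the files with a second symbol, so both stand outside the 81.

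Levels per length spanned nearly 3 orders of magnitude in every group. In innervated WT libraries the large subunit genes had a median of 234 FPKM and the small subunit genes 255 FPKM. Rplp1, an acidic protein of the stalk that recruits translation factors, was the highest, with 1491 and 1766 FPKM in DKO-labelled, 1608 and 2053 in denervated WT and 1167 and 1392 in innervated WT libraries. Rpl41, a very short peptide at the bridge between the subunits, and Rps29, of the small subunit head, were also among the highest. Rpl41 averaged 990 ± 110.4 FPKM in DKO-labelled, 1148 ± 179 in denervated WT and 711 ± 38.8 in innervated WT libraries (SD, n = 2 each). Rps29 averaged 974 ± 178 FPKM in DKO-labelled, 921 ± 122.6 in denervated WT and 663 ± 67.1 in innervated WT libraries (SD, n = 2 each), and the order of Rpl41 and Rps29 was not separated beyond the spread of the libraries.

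The lowest tested member was Rps4y2, which RefSeq lists as Rps4l, a transcribed pseudogene, with 1.22 to 3.57 FPKM over all 6 libraries. Rps15a stood at 8.85 to 21.2 FPKM, but the files count 217 scaled fragments for each FPKM of this gene, against 124 for Rpl7l1, 87.5 for Rpl22 and less for every other member, so its low level rests on the length the authors' annotation gave it. In addition, 57 of the 81 members have at least 1 named pseudogene, 285 in all. How the authors divided reads between a gene and its near copies is not given in the sources used here, so levels and changes of these members are uncertain to that extent.

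**Figure D1:**
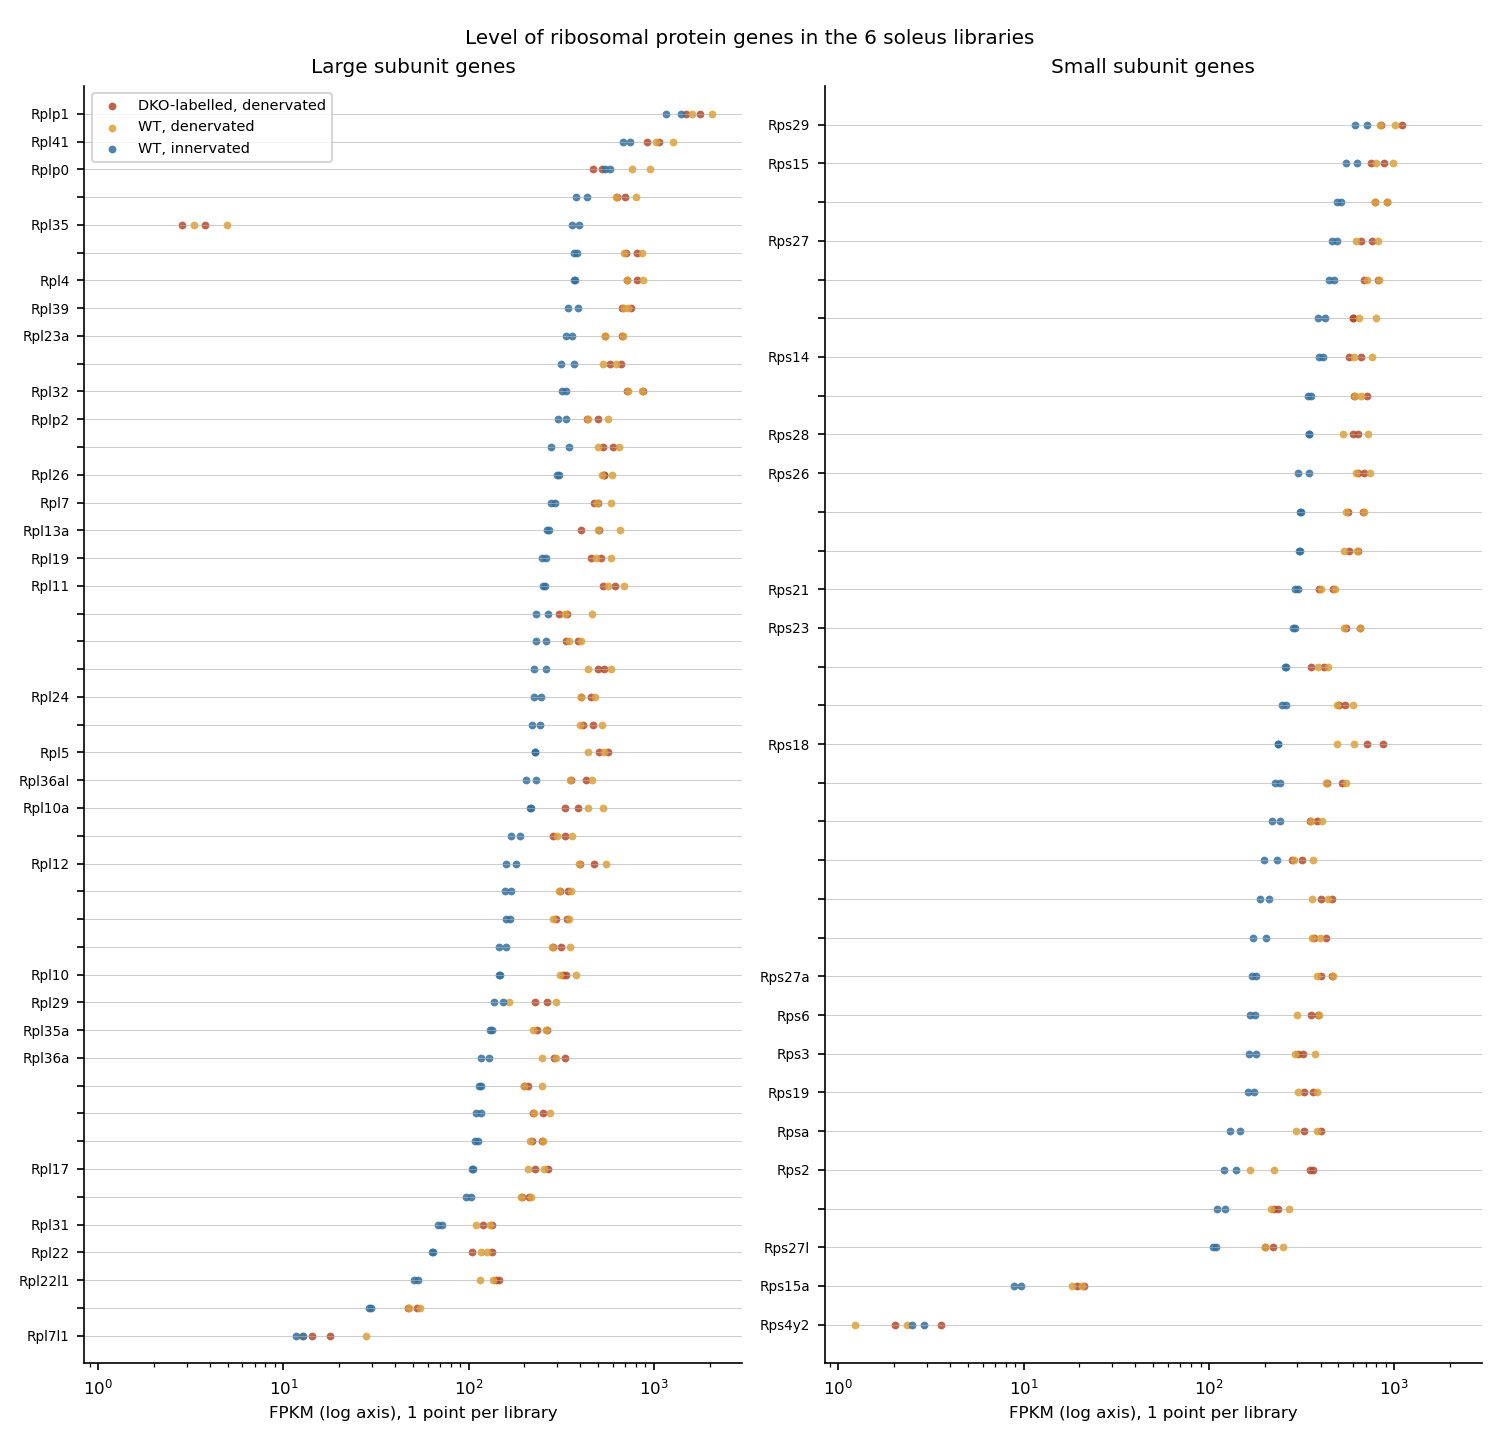
FPKM of 77 of the 79 tested members in each of the 6 libraries on a log axis, large subunit genes at left and small subunit genes at right, ordered by their mean in innervated WT libraries, with names beside the genes described in the text. Nearly every row has the 4 denervated points to the right of the 2 innervated points, and Rpl35 has them far to the left.

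At 3 days after denervation, ribosomal protein genes of both subunits stood at a median of 1.99 times their innervated level in WT soleus. By edgeR's quasi-likelihood test at an adjusted p under 0.05, 73 of the 79 tested members were higher in denervated than in innervated WT libraries, 1 was lower and 5 were not called. Of all 12247 genes tested, 14.4% were called higher, 14.3% lower and 28.7% in either direction. Of the large subunit genes 42 of 46 were higher, and of the small subunit genes 31 of 33. The median log2 change was 0.99 for the large and 0.99 for the small subunit, against 0.00 for all genes. The interquartile range was 0.31 log2 units over the members and 1.03 over all genes.

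Both libraries of denervated WT soleus lay above both innervated WT libraries for 77 members, a pattern seen in 35.1% of all genes tested, and below both for Rpl35 and Rps4y2, seen in 35.5%. Within the run of sample numbers that held the first library of each group, the median difference over members was 0.86 log2 units, and within the other run it was 1.13. In each run 77 of 79 members were higher. The count of calls rested on the number of innervated libraries: with either innervated WT library left out, no member was called higher, where the calls over all genes came to 3.82% and 1.65%. In these fits 67 and 72 of the 79 members had an unadjusted p under 0.05, against 27.5% and 27.3% of all genes. Over the alternatives that kept both innervated libraries, 62 to 77 members were called higher.

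Rpl12, which anchors the stalk to the large subunit, changed most among the rising members. It had 398 and 474 FPKM in DKO-labelled, 395 and 550 in denervated WT and 160 and 179 in innervated WT libraries. The 4 denervated libraries were all above the innervated ones, with a log2 change of 1.57 ± 0.21 (SE; adjusted p = 0.00593) between the WT groups. Behind it came Rpl32 at 1.36, Rpsa at 1.35, Rps27a at 1.35 and Rpl11 at 1.34, all called. The smallest changes among members above 0 were those of Rps29 at 0.52 (adjusted p = 0.0896), Rplp1 at 0.59 (0.07) and Rps21 at 0.64 (0.0321), and of these only Rps21 was called. Without Rpl35, 76 of 78 members lay within 0.5 log2 units of the median.

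**Figure D2:**
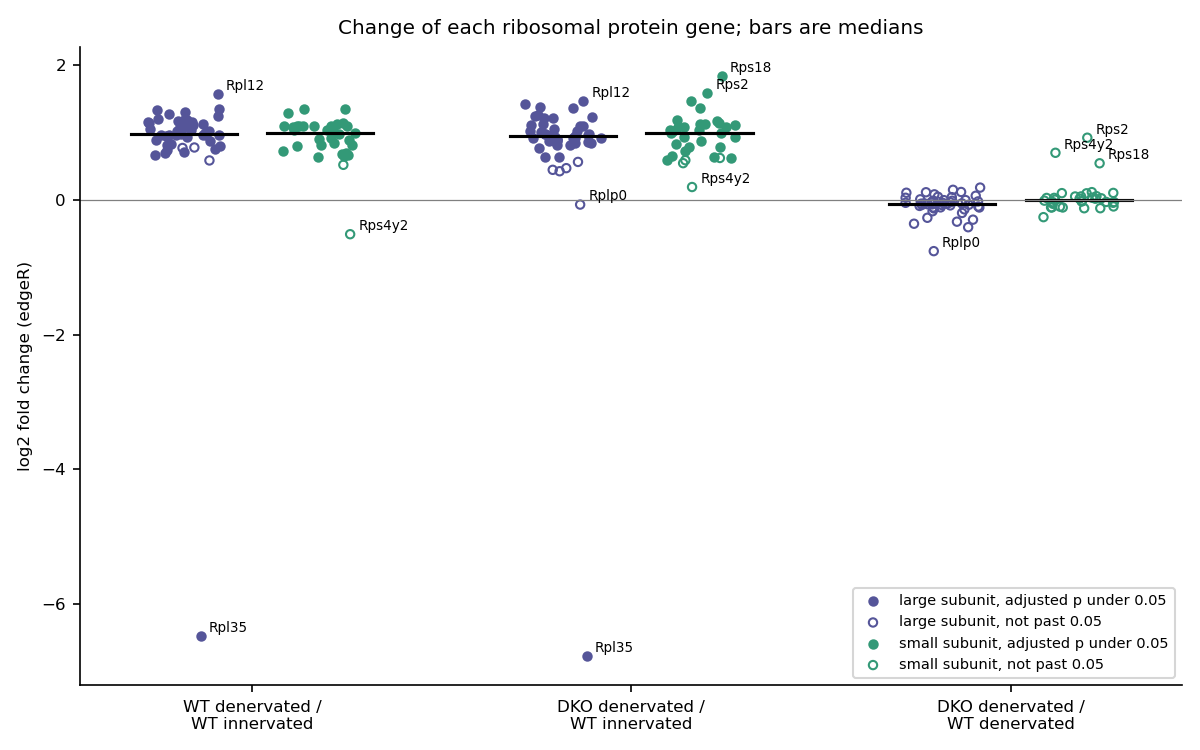
Log2 fold change of each tested member in the 3 comparisons, large subunit in blue and small subunit in green, filled where the adjusted p was under 0.05, with black bars at the medians. The comparisons with innervated WT soleus are centred near 1, the comparison of the denervated groups is centred near 0, and Rpl35 lies below -6 in the comparisons with innervated WT.

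Within the stalk, the acidic proteins moved less than their anchor. Rplp2, a partner of Rplp1, had 435 and 499 FPKM in DKO-labelled, 441 and 563 in denervated WT and 302 and 337 in innervated WT libraries, a log2 change of 0.72 ± 0.18 between the WT groups (adjusted p = 0.0295). Rplp0, the scaffold that carries Rplp1 and Rplp2, changed by 0.69 ± 0.18 (adjusted p = 0.0342), and Rplp1 was not called. The difference between Rpl12 and the other stalk genes was not tested. Rpl5 and Rpl11, which bind the 5S ribosomal RNA and, when free of ribosomes, inhibit Mdm2, were both higher, at 1.14 ± 0.17 and 1.34 ± 0.18. Rpl11 had 529 and 621 FPKM in DKO-labelled, 564 and 692 in denervated WT and 252 and 259 in innervated WT libraries.

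Of 9 members that line the peptide tunnel or ring its exit, 8 were higher and Rpl35 was lower, near the 73 of all 79 tested members called higher. Rpl4, whose long loop reaches into the tunnel, had 719 and 809 FPKM in DKO-labelled, 719 and 868 in denervated WT and 370 and 377 in innervated WT libraries, with a log2 change of 1.16 ± 0.18 between the WT groups (adjusted p = 0.00804). Rpl17, Rpl19, Rpl39, Rpl22, Rpl26, Rpl23a and Rpl31 ran from 0.80 (Rpl31) to 1.19 (Rpl17). Of the members tied to late large subunit maturation or subunit joining, Rpl10 changed by 1.31 ± 0.16, Rpl24 by 0.97 ± 0.17 and Rpl41 by 0.76 ± 0.18, and all 3 were called higher.

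In the small subunit, all 6 members placed along the path of the messenger RNA were higher in denervated than in innervated WT libraries. Rpsa, at the exit of that path, had 327 and 403 FPKM in DKO-labelled, 294 and 382 in denervated WT and 131 and 146 in innervated WT libraries, with a log2 change of 1.35 ± 0.21 between the WT groups (adjusted p = 0.00774). Rps26 changed by 1.13 ± 0.17, Rps3 by 0.99 ± 0.18, Rps28 by 0.91 ± 0.19, Rps14 by 0.85 ± 0.18 and Rps2, at the entry, by 0.66 ± 0.19 (adjusted p = 0.0445, the highest of any called member). Near the decoding centre, Rps27a, made as a fusion with ubiquitin, Rps23 and Rps15 changed by 1.35, 1.10 and 0.69, all called. Rps6, the substrate of S6 kinase, had 354 and 388 FPKM in DKO-labelled, 299 and 394 in denervated WT and 167 and 178 in innervated WT libraries, and was called higher at 1.04 ± 0.19 (adjusted p = 0.0121). All 10 genes on a list chosen here from those mutated in Diamond-Blackfan anaemia in humans were higher, with a list median of 1.03. Among them were Rps19 at 1.09 and Rpl35a at 0.93. Rpl35 and Rps29 were not on that list. The counts in these groups repeat the 73 of all 79 tested members called higher, with a median of 0.99, and set no group apart.

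Rpl35, a protein at the tunnel exit, was the 1 member called lower. It had 2.85 and 3.76 FPKM in DKO-labelled, 3.30 and 4.95 in denervated WT and 363 and 393 in innervated WT libraries. These rested on 40 and 50 fragments in DKO-labelled, 64 and 62 in denervated WT and 3947 and 3224 in innervated WT libraries. The 4 denervated libraries were low and the groups did not overlap, with log2 changes of -6.77 ± 0.29 in DKO-labelled and -6.48 ± 0.28 in denervated WT against innervated WT soleus (adjusted p = 0.000515 and 0.000598). The call was kept in all 16 alternatives of each comparison, with adjusted p-values up to 0.0139 and 0.0218.

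On mm9 the files place Rpl35 at chr2:38853828-38860651, a span in which Wdr38 had 0 or 1 fragments per library. Of its neighbours, Arpc5l, an actin-nucleating subunit, had 57.8 and 66.9 FPKM in DKO-labelled, 60.1 and 66.1 in denervated WT and 84.7 and 106 in innervated WT libraries. Its log2 change against innervated WT was -0.61 ± 0.17 in DKO-labelled (edgeR adjusted p = 0.0404) and -0.57 ± 0.17 in denervated WT soleus (adjusted p = 0.0514). Golga1, a Golgi protein, had 6.43 and 7.27 FPKM in DKO-labelled, 5.92 and 6.62 in denervated WT and 5.32 and 5.29 in innervated WT libraries, and was not called in either comparison. Acta1, an abundant myofibre gene, was listed at 0 in every library, denervated and innervated alike. Tpt1, a translation partner, had 619 and 118 FPKM in DKO-labelled, 617 and 38.7 in denervated WT and 419 and 29.1 in innervated WT libraries. It was thus low in the second library of every group. Whether the values of Rpl35 in the denervated libraries are failed estimates was not tested.

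The remaining members without a call between the WT groups were Rpl29, Rpl7l1 and Rps4y2, whose denervated WT libraries differed most from each other. Rpl29 had 229 and 266 FPKM in DKO-labelled, 166 and 296 in denervated WT and 137 and 153 in innervated WT libraries. Rpl7l1, a nucleolar relative of Rpl7, had 14.2 and 17.9 FPKM in DKO-labelled, 12.6 and 27.9 in denervated WT and 12.8 and 11.7 in innervated WT libraries. In both genes it was the second denervated WT library that was high. Rps4y2 had 3.57 and 2.01 FPKM in DKO-labelled, 2.34 and 1.22 in denervated WT and 2.49 and 2.91 in innervated WT libraries, the only tested member besides Rpl35 with a fitted change below 0.

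DKO-labelled soleus also stood above innervated WT soleus at most members. Against innervated WT soleus, with which the previous comparison shares its libraries, 68 of 79 members were higher and Rpl35 was lower, where 15.2% of all genes were called higher, 16.2% lower and 31.4% in either direction. The large subunit had 39 of 46 genes higher and a median log2 change of 0.94, and the small subunit 29 of 33 and 1.0. The count of calls fell when the first or the second innervated WT library, or the second DKO-labelled library, was left out. In each of these fits 77 of 79 members were above 0. The 5 highest were Rps18 at 1.84, Rps2 at 1.59, Rpl12 at 1.47, Rpsa at 1.46 and Rpl22l1 at 1.43. The lowest besides Rpl35 were Rplp0 at -0.07, Rps4y2 at 0.19, Rpl7l1 at 0.43 and Rplp1 at 0.45, none of which was called. The DKO-labelled libraries lay above both innervated libraries for 76 members and below both for Rpl35, patterns seen in 38.3% and 38.1% of all genes. Every one of the 4 denervated libraries stood above both innervated libraries for 76 of the 79 members, 44 large and 32 small, a pattern held by 31% of all genes tested, and the exceptions were Rpl35, Rplp0 and Rps4y2.

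Between the denervated groups, edgeR called none of the 79 members, where 5 of 12247 genes, or 0.0408%, were called in all, 0.0245% higher and 0.0163% lower. The median log2 difference, DKO-labelled minus WT, was -0.05 for the large and 0.00 for the small subunit, against -0.02 for all genes. Its sign turned with the library left out: 28 members were above 0 with all libraries, 72 without the second denervated WT library and 6 without the first. Of the 79 members, 3 had an unadjusted p under 0.05, Rps2, Rplp0 and Rps18, a share of 3.8% that lay below the 6.11% of all genes. DESeq2, whose calls over all genes came to 1.52%, called Rps2 higher and Rplp0 lower, with adjusted p-values of 0.01 and 0.0163. The DKO-labelled and WT libraries did not overlap in the higher direction for 3 members and in the lower for 3, patterns seen in 14.2% and 14.4% of all genes.

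Rps2, at the entry of the messenger RNA path, had 367 and 353 FPKM in DKO-labelled, 167 and 224 in denervated WT and 120 and 140 in innervated WT libraries. The groups stood in that order without overlap. Rps2, Rps18 and Rplp0 were picked by their p between the denervated groups. Their order, differences within runs and ranges over alternatives come from the same libraries and are no separate support. How many of all genes show such an order was not counted. The log2 difference between the denervated groups was 0.92 ± 0.19 (edgeR unadjusted p = 0.00233, adjusted p = 0.332), at 1.18 within one run of sample numbers and 0.70 within the other. Across the 16 alternatives it ran from 0.73 to 1.16. Rps2 has 11 named pseudogenes, and the files place it at chr17:24857007-24858872 (mm9).

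Rps18, a protein of the small subunit head that forms a bridge to the large subunit, had 715 and 866 FPKM in DKO-labelled, 491 and 606 in denervated WT and 237 and 235 in innervated WT libraries. In this gene, picked in the same way, the groups also stood apart in that order. The difference between the denervated groups was 0.54 ± 0.18 (unadjusted p = 0.0214, adjusted p = 0.677), with 0.56 and 0.53 within the runs, and it ran from 0.39 to 0.73 over the alternatives. The gene lies at chr17:34088943-34092586 (mm9) and has 3 named pseudogenes.

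Rplp0, often used as a reference gene in quantitative PCR, had 470 and 524 FPKM in DKO-labelled, 766 and 948 in denervated WT and 545 and 578 in innervated WT libraries. The denervated WT libraries were high, and the DKO-labelled libraries were below every other library in FPKM, while in scaled counts they overlapped the innervated WT libraries. The difference between the denervated groups was -0.76 ± 0.18 (unadjusted p = 0.00505, adjusted p = 0.408), with -0.68 and -0.83 within the runs, and it ran from -0.91 to -0.59 over the alternatives. Against innervated WT soleus the DKO-labelled libraries differed by -0.07 ± 0.18 (adjusted p = 0.798). The files place Rplp0 at chr5:116009475-116013738 (mm9), and it has 1 named pseudogene.

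The other members at the ends of this comparison had an unadjusted p above 0.05. Rpl10a had 333 and 387 FPKM in DKO-labelled, 440 and 533 in denervated WT and 216 and 216 in innervated WT libraries, a difference of -0.40 ± 0.17 between the denervated groups (adjusted p = 0.828). Rpl7l1 at -0.35, Rpl13a at -0.32 and Rpl35 at -0.29 followed, and on the higher side Rps4y2 at 0.70, Rpl36a at 0.18 and Rpl22l1 at 0.15, none called. In Rpl35, Rpl7l1 and Rps4y2 the libraries of the denervated groups overlapped.

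**Figure D3:**
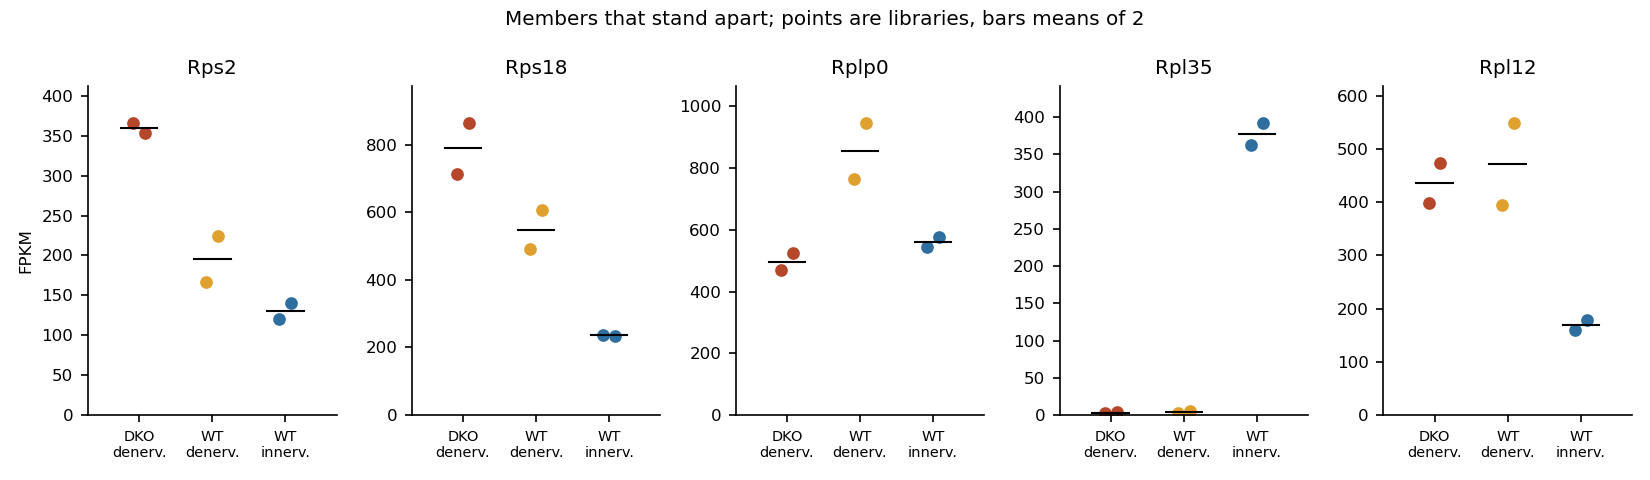
FPKM of Rps2, Rps18, Rplp0, Rpl35 and Rpl12 in each library (points) with the mean of the 2 libraries of a group (bars), each panel on its own axis from 0. Rps2 and Rps18 step down from DKO-labelled to denervated WT to innervated WT libraries, Rplp0 is highest in denervated WT, Rpl35 is near 0 in both denervated groups, and the denervated groups overlap in Rpl12.

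As a share of all assigned fragments, the 81 members took 2.93% and 3.35% in DKO-labelled, 2.83% and 3.42% in denervated WT and 1.33% and 1.32% in innervated WT libraries. The denervated groups overlapped and both lay above the innervated group. The shares averaged 3.14 ± 0.303% in DKO-labelled, 3.13 ± 0.417% in denervated WT and 1.33 ± 0.00994% in innervated WT libraries (SD, n = 2 each), and 2 libraries a group allow no test by permutation that passes 0.05. The 20 genes of most fragments, chiefly sarcomere and metabolic genes and no member, took 8.76% to 10.2% in DKO-labelled, 9.06% to 11.7% in denervated WT and 17.3% in innervated WT libraries. With those 20 genes left out of the total, the large subunit took 1.86% and 2.10% in DKO-labelled, 1.91% and 2.24% in denervated WT and 0.959% and 0.952% in innervated WT libraries.

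The libraries of a denervated group differed in a way shared by most members. The second library was above the first for 76 of 79 members in the DKO-labelled group, with a median of 0.20 log2 units, and for 77 of 79 in the denervated WT group, with a median of 0.30. In the innervated WT group it was above for 55, with a median of 0.06. Over all genes these medians were 0.00, -0.01 and 0.01. The members therefore did not vary independently of each other, and their counts of calls are not counts of separate observations.

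The ratio of large to small subunit fragments was 1.33 and 1.33 in DKO-labelled, 1.47 and 1.47 in denervated WT and 1.47 and 1.48 in innervated WT libraries. The DKO-labelled libraries were low and did not overlap the others. Of the 3 members of lowest unadjusted p, Rps2 and Rps18 belong to the small subunit and were above denervated WT, and Rplp0 belongs to the large subunit and was below it. Rplp0 made up 3.13% and 3.06% of all member fragments in DKO-labelled, 5.03% and 5.05% in denervated WT and 6.13% and 6.14% in innervated WT libraries. Without Rplp0, Rps2 and Rps18, a choice made after seeing the data, the ratio was 1.36 and 1.35 in DKO-labelled, 1.40 and 1.41 in denervated WT and 1.38 and 1.39 in innervated WT libraries. The order of the groups then changed but the DKO-labelled libraries were still the lowest. With Rpl35 also left out, the innervated WT libraries had 1.35 and 1.36 and overlapped the DKO-labelled ones.

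**Figure D4:**
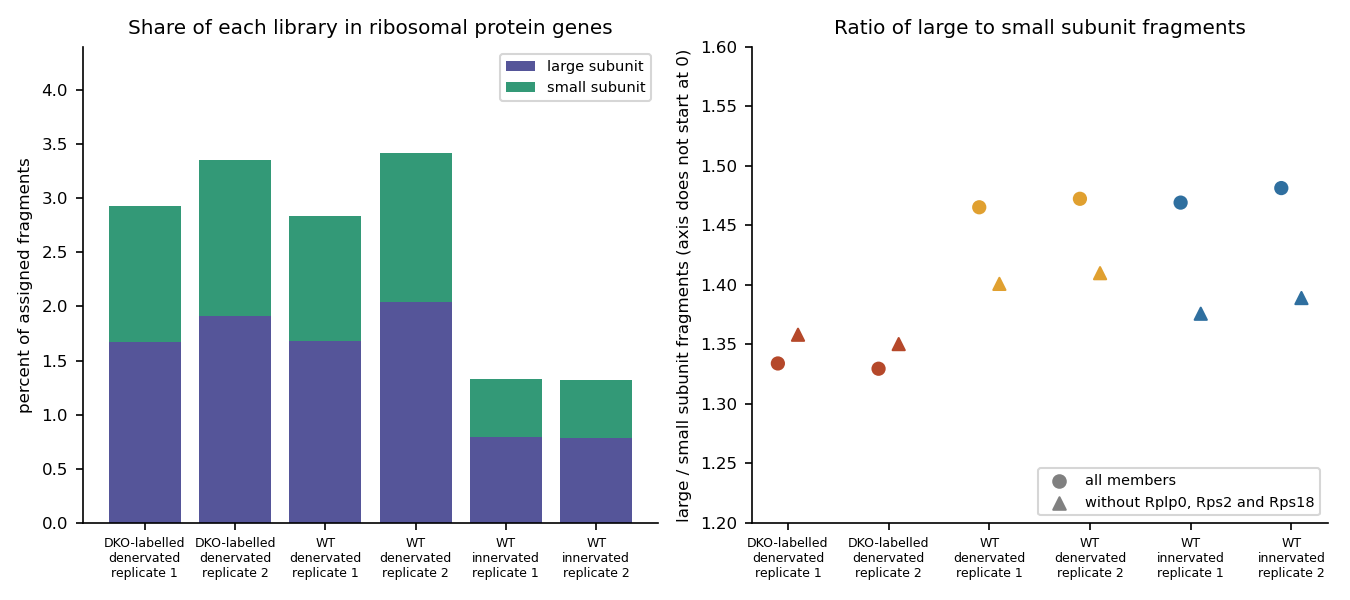
Left, percent of assigned fragments in large (blue) and small (green) subunit genes in each library, from 1.32% to 3.42% in all. Right, ratio of large to small subunit fragments with all members (circles) and without Rplp0, Rps2 and Rps18 (triangles), on an axis that does not start at 0, where the DKO-labelled libraries lie lowest in both.

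Several members are paralogues of another, and the share of the copy in the pair's summed FPKM shows whether a pair kept its proportions. Rpl22l1, the paralogue of Rpl22, made up 58.4% and 51.2% in DKO-labelled, 53.9% and 47.9% in denervated WT and 44.0% and 45.6% in innervated WT libraries. Both denervated groups lay above the innervated one and overlapped each other. Rpl22l1 itself had 147 and 140 FPKM in DKO-labelled, 135 and 116 in denervated WT and 50.6 and 53.0 in innervated WT libraries, a log2 change of 1.27 ± 0.15 between the WT groups (adjusted p = 0.00431), whereas Rpl22 changed by 0.97 ± 0.18. Rps27l, which p53 can induce, made up 23.1% and 22.6% of its pair with Rps27 in DKO-labelled, 24.4% and 23.5% in denervated WT and 18.1% and 18.7% in innervated WT libraries. Rps27l changed by 1.11 ± 0.17 and Rps27 by 0.69 ± 0.19 between the WT groups, both called, and the pair's proportion in all denervated libraries lay above that in the innervated ones.

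In the other pairs the copy's share was not higher in both denervated groups. Rpl36al, the near-identical relative of Rpl36a, made up 55.3% and 56.5% in DKO-labelled, 58.8% and 61.1% in denervated WT and 61.4% and 66.5% in innervated WT libraries, which placed the groups in order without overlap. Both genes were called higher in denervated than in innervated WT libraries, Rpl36al at 0.97 and Rpl36a at 1.20. Rpl7l1 made up 2.91% and 3.45% of its pair with Rpl7 in DKO-labelled, 2.50% and 4.54% in denervated WT and 4.20% and 4.05% in innervated WT libraries, and the denervated WT libraries spanned the others. No test was made of a change in proportion within a pair.

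**Figure D5:**
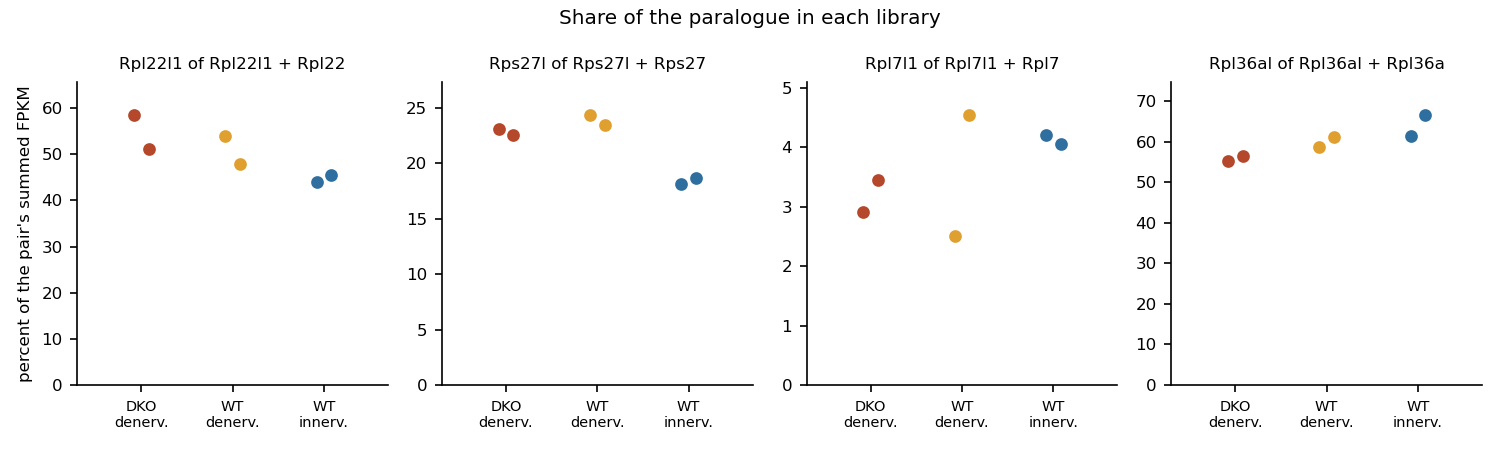
Share of the paralogue in the summed FPKM of its pair in each library, for 4 pairs, each on its own axis from 0 percent. Rpl22l1 and Rps27l hold larger shares in every denervated library than in the innervated ones, Rpl36al holds smaller shares, and for Rpl7l1 the denervated WT libraries span the others.

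Other genes tied to the ribosome did not all follow the members. Fau encodes a ribosomal protein fused to a ubiquitin-like sequence and falls outside the naming rule, and it changed by 1.0 ± 0.21 between the WT groups (adjusted p = 0.0178). Of 16 tested translation partners, 8 were higher and none lower in denervated than in innervated WT libraries, with a median of 0.66, where 14.4% of all genes were called higher. They included the elongation factors Eef1b2 at 1.16 and Eef1a1 at 1.67, the ribosome-bound scaffold Gnb2l1 at 1.22 and Btf3 at 1.0. Without the first or the second innervated WT library the median of the partners was 0.79 or 0.61, and fewer were called. Of 74 mitochondrial ribosomal protein genes, 2 were higher and 12 lower, with a median of -0.15. The 12 lower are near the 14.3% of all genes called lower.

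Of 30 ribosome biogenesis factors, 22 were higher and none lower in denervated than in innervated WT libraries, with a median of 1.44, where 14.4% of all genes were called higher. The second denervated WT library was above the first for all 30, and the median within the runs was 0.74 and 1.92. Without the second denervated WT library the median was 0.71 with 20 called higher, without the first it was 1.85 with 26, and without either innervated WT library none was called. In the DKO-labelled group 16 were higher than in innervated WT soleus, where 15.2% of all genes were, and this count ran from 1 to 26 with a library left out, a choice made after seeing the data. Bop1, a large subunit assembly factor, changed by 2.01, Nhp2, a protein of small nucleolar particles, by 2.60, the rRNA methyltransferase Fbl by 1.53 and Polr1b, a subunit of RNA polymerase I, by 1.81. Of 19 tested regulators of ribosomal protein synthesis, 6 were higher and none lower, with a median of 0.41. Without the first or the second denervated WT library that median was 0.52 or 0.29. With either innervated WT library left out, fewer regulators were called. Myc had 7.01 and 7.87 FPKM in DKO-labelled, 5.86 and 15.2 in denervated WT and 1.16 and 1.19 in innervated WT libraries, a change of 3.24 between the WT groups (adjusted p = 0.00633). Cdkn1a, a p53 target, had 98.8 and 182 FPKM in DKO-labelled, 109.8 and 324 in denervated WT and 12.6 and 13.0 in innervated WT libraries. Its change of 4.14 between the WT groups was 4.71 without the first and 3.15 without the second denervated WT library. Mtor changed by 1.22 and Eif4ebp1, a translation repressor under mTOR, by 2.09, and all 3 were called. None of the 30 biogenesis factors, 16 partners or 19 regulators was called by edgeR between the denervated groups, where 0, 0 and 2 had an unadjusted p under 0.05, against 6.11% of all genes.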

How the data were processed

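Sample titles gave the groups but no numbers within them, and libraries were numbered in accession order. Nothing in the labels says that the 2 libraries of a group came from separate animals, and p-values then measure only how far these libraries spread, which may be technical variation. Build mm9 and the tools Cuffdiff 2.0.2, TopHat2 2.0.3, Bowtie2 2.0.0.7, Trim Galore 0.2.1 and CASAVA 1.8.2 were used, per the submitters' processing notes. What each tool did, which gene models were counted and whether strand was used is not given in the sources used here. The authors' tables hold FPKM, a signal of externally scaled fragments and raw fragments, which are estimated counts, per the file headers. The deposited signal equalled the raw fragments times 1 factor per library, from 0.6643 to 1.5641, and FPKM followed that factor, so FPKM is not a share of a library's total. Each of the 21805 entries was listed 3 times in 65415 lines and was kept once, and entries of 1 symbol were summed. Coordinates are those of the files, which do not say whether starts count from 0.

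The main test was edgeR 4.0.16's quasi-likelihood test in R 4.3.3 on rounded estimated counts with TMM scaling, genes of mean FPKM of at least 0.5 (12247), all 6 libraries in 1 fit of group means with 3 residual degrees of freedom, and Benjamini-Hochberg adjustment over all genes, two-sided at 0.05. The common coefficient of biological variation was 0.222. Standard errors were obtained as the absolute log2 fold change over the root of the F statistic. The fit was also run on simulated counts with the same spread set for every gene, unlike these data, and no result here rests on it. Alternatives were other scalings and filters, DESeq2 1.42.0, limma 3.58.1 on log2(FPKM + 0.5) or + 1, also quantile normalized, only the 2 groups compared, a block for the runs of sample numbers, joined rows counted as members, and each library left out. Depth was given above, and medians, shares and ratios over members have no test.

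The members, role groups and companion lists were chosen with earlier results of these data known. Genes named with values were, by rule, the targeted genes, the 5 highest and 5 lowest changes of each comparison, members called against the majority or between the denervated groups, the 5 highest and 3 lowest levels, role groups and paralogue pairs, members whose libraries differed most, members not tested, and the 4 of smallest p in each companion list. Some genes that this rule takes in are not reported here. The neighbours of Rpl35, as well as Rpl29, Rpl10, Fau, Tpt1, Larp1, Max, Yy1 and Gabpa, were named after their values were seen. Promoter windows come from RefSeq (GRCm38.p6) and were matched by symbol or gene ID.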

Additional observations from a re-analysis of the deposited data

How the results depend on the processing

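With 2 libraries a group, the counts of calls depended on which libraries entered. Leaving out 1 library at a time gave 0 to 77 members called higher in denervated against innervated WT soleus, with 0 without either innervated library, and 4 to 74 in DKO-labelled against innervated WT soleus, with 8 and 4 without innervated WT replicate 1 or 2 and 27 without DKO-labelled replicate 2. Without DKO-labelled replicate 2 or 1, the small subunit median of that comparison was 0.8918 or 1.072. Between the denervated groups, leaving out a denervated WT library moved Rpl35 between -0.5757 and 0.0164 and Rpl7l1 between -0.8133 and 0.3367. Against innervated WT, leaving out a DKO-labelled library moved Rplp0 between -0.1578 and 0.0158 and Rps4y2 between -0.2719 and 0.5409. The lone library of a group was then assumed to vary like the others, and the cause was not tested.

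DESeq2 called 1 member higher, Rps2, and 1 lower, Rplp0, between the denervated groups, where every other setting called 0. Quantile-normalized limma gave medians of 1.10 for the large and 1.16 for the small subunit in DKO-labelled against innervated WT soleus, and 0.1021 for Rplp0. From raw fragments, Rps27l relative to Rps27 changed by 0.4189 log2 units in denervated WT and by 0.3353 in DKO-labelled against innervated WT soleus. The ratio of large to small subunit fragments, with members left out by a choice made after seeing the data, averaged 1.354 in DKO-labelled, 1.405 in denervated WT and 1.382 in innervated WT libraries without Rplp0, Rps2 and Rps18. It averaged 1.354, 1.405 and 1.358 in the same groups without Rpl35 as well. Of the other values for single members, 488 kept their direction and side of the threshold, 24 kept only their direction and fell short of it, and 11 newly passed it. With the runs of sample numbers as a replicate block, 76, 0 and 75 members were called higher in denervated WT against innervated WT, DKO-labelled against denervated WT and DKO-labelled against innervated WT soleus, and the labels do not say what a run shares.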
